A study of Mus musculus with 12 samples.

Results

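Saa3, Spp1, Chil3 and Prg4 encode 4 secreted proteins of injured or inflamed tissue. They were taken as 4 of the 46983 gene symbols of each deposited table as secreted proteins with large rises in the non-cardiomyocyte fraction of injured neonatal mouse hearts in which Wls had been targeted. They are not the 4 largest, since the secreted neutrophil protein Ltf, for example, had a log2 difference of 2.73 in that fraction, against 2.46 for Spp1 and 1.63 for Prg4. The values of the 4 genes in that fraction (NonCM) therefore chose them and are given as a description, with no test. Their values in the cardiomyocyte fraction (CM) were not used for the choice and were tested.

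Serum amyloid A3, the product of Saa3, is an acute phase apolipoprotein made outside the liver by macrophages, fibroblasts and epithelia exposed to bacterial products or to interleukin-1. Osteopontin, the product of Spp1, is a phosphoprotein of the matrix that binds integrins and CD44 and is produced by macrophages and stromal cells of healing infarcts. Chil3 encodes Ym1, a chitinase-like lectin with no chitinase activity that is made by myeloid cells and marks alternatively activated macrophages. Prg4 encodes lubricin, a mucin-like glycoprotein that coats joint surfaces and serous linings and binds hyaluronan and CD44.

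The 12 libraries form 4 groups of 3, namely control and Wls fl/fl hearts, each as a CM and a NonCM fraction. Control mice were MCM/+, and the other mice were MCM/+ Wls fl/fl, both of strain BL6/C57. MCM is the usual name of MerCreMer, a tamoxifen-dependent Cre, and Wls (Wntless) carries Wnt proteins to the cell surface. All groups shared 3 tamoxifen doses given on postnatal days 1 to 3, a myocardial infarction at postnatal day 2, and collection 2 weeks later. The labels call the cells adult, and the promoter that drives MCM is not named in them. No uninjured and no tamoxifen-free group was analysed here.

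Values are normalized read counts, and reads recovered from them numbered 1160146 in NonCM control replicate 1 and between 5171769 and 10281214 in the other 11 libraries. In NonCM control replicate 1 a single read is worth 5.54, so each value below about 50 in that library rests on few reads. Replicate 3 stood apart in another way. In each of the 4 groups its profile was close to a weighted sum of those of replicates 1 and 2, with a residual variance 1 to 1.07 times the counting variance, against 1.11 to 1.89 times when replicate 1 or 2 was set against the other two. Whether replicate 3 is an independent heart was not tested, and results are given without it where that matters. P-values measure only the spread between these libraries.

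The targeted gene and the fractions were checked first. Wls fell in CM, from 218 ± 22.1 in control to 80.9 ± 20.5 in Wls fl/fl (SD, n = 3; limma adjusted p = 0.00389, which became 0.0898 when replicate 3 was left out of both groups). In NonCM it was 403 ± 26.9 and 332 ± 21.4 (adjusted p = 0.0831). Esr1, whose hormone-binding part is built into the MerCreMer protein, also differed between the genotypes although both are labelled MCM/+. It stood at 14.3 to 33.3 in the 3 CM control libraries and at 1298 to 1686 in the 3 CM Wls fl/fl libraries. Whether the control hearts carried the transgene was not tested, and the Wls genotype and this difference cannot be told apart in any comparison below. Cardiomyocyte markers made up 8.88% to 9.97% of CM reads and 5.24% to 6.62% of NonCM reads, so the NonCM libraries hold much cardiomyocyte RNA. Fibroblast markers made up 0.104% to 0.132% of CM reads and 0.934% to 1.48% of NonCM reads. Other lists separated the fractions less. Endothelial markers made up 0.152% to 0.181% of CM reads and 0.201% to 0.23% of NonCM reads. Pericyte and smooth muscle markers were higher in CM, at 0.182% to 0.197% against 0.1635% to 0.1725%. The CM libraries thus also hold RNA of other cell types.

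The promoters of the genes are shown here so that the proximal elements of genes chosen for high levels in the same libraries can be compared. RefSeq (GRCm38.p6) windows were found for 3 of the 4 genes, Prg4 being the one without an entry. The 250 bases before the transcription start are printed on the gene's strand, for Saa3 at chr7:46715677-46715926 on the minus strand, for the upstream start of Spp1 at chr5:104434861-104435110 on the plus strand and for Chil3 at chr3:106167565-106167814 on the minus strand. Capitals mark matches to any of 8 motifs searched on both strands.
Saa3: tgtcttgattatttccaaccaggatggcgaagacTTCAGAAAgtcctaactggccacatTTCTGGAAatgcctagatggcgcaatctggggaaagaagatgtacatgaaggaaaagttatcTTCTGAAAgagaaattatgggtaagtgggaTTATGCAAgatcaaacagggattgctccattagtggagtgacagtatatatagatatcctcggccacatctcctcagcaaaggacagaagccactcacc
Spp1: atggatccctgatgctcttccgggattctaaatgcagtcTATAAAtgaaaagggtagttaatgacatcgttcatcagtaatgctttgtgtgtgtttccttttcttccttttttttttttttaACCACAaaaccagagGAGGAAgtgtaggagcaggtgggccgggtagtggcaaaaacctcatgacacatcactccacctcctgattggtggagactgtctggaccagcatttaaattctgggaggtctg
Chil3: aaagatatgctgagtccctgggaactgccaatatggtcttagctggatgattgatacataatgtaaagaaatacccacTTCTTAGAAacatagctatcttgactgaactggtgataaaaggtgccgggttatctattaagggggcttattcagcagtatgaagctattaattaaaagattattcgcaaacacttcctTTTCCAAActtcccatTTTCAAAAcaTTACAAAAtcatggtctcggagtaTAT
The motifs were TATAAA, the TATA box, TTNNGNAA, bound by C/EBP factors, TGANTCA, bound by AP-1, TTCNNNGAA, bound by STAT factors, GGAATG, bound by TEAD factors, TGTGGT, bound by RUNX factors, GAGGAA, bound by ETS factors such as PU.1, and the NF-kappaB consensus. Matches did not overlap each other in these windows. Among 32851 promoter windows of 300 bases, the share with at least 1 match was 13.6% for TATA, 40.7% for C/EBP, 7.81% for AP-1, 8.3% for STAT, 14.7% for TEAD, 16.8% for RUNX, 28.3% for ETS and PU.1, and 4.51% for NF-kappaB. The Saa3 window held 4 C/EBP matches, beginning 216, 191, 129 and 99 bases before the start, and 4 or more were found in 0.852% of all windows. The Chil3 window held 3 C/EBP matches, a count reached by 3.6% of windows, besides a STAT match beginning 172 bases before the start and a TATA match that straddles the start and is printed only in part. The Spp1 window held a TATA match beginning 211 bases before the start, a RUNX match on the other strand and a GAGGAA match, and its second RefSeq start, which lies within the gene, had 2 C/EBP matches. A match describes letters only and is not evidence that a factor binds there.

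In the NonCM fraction all 4 genes had higher normalized counts in every Wls fl/fl library than in any control library. Differences in mean level were 3.10-fold for Prg4, 6.03-fold for Spp1, 7.04-fold for Saa3 and 9.85-fold for Chil3. Because these values chose the genes, nothing is read from the separation, which 13.9% of the 13271 NonCM genes with a mean of 10 or more also showed in this direction. All 4 genes passed that minimum in NonCM.

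Saa3 (chromosome 7, 46711998 to 46715700, minus strand, GRCm38) was at 22.2, 16.0 and 23.2 in NonCM control replicates 1 to 3 and at 191, 120 and 121 in the corresponding Wls fl/fl libraries. The control libraries were close to each other, and among Wls fl/fl libraries replicate 1 was highest, 1.60 times the lowest. Means were 20.5 ± 3.88 and 144 ± 41.0 (SD, n = 3 each), a log2 difference of 2.74 on the log2(value + 1) scale. The values rest on 57 reads in control and 643 reads in Wls fl/fl libraries, and the ratio of the pooled reads, each scaled to its libraries' read totals, was 7.64 with a 95% interval of 5.82 to 10.2 for counting error only.

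Spp1 (chromosome 5, 104435118 to 104441050, plus strand) was at 16.6, 16.8 and 11.6 in the NonCM control libraries and at 57.9, 125 and 88.2 in the Wls fl/fl libraries. Here replicate 2 was the highest Wls fl/fl library and replicate 1 the lowest, a 2.16-fold spread. Means were 15.0 ± 2.96 and 90.4 ± 33.7, a log2 difference of 2.46. Read totals were 41 and 397, with a pooled ratio of 6.56 (4.75 to 9.28).

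Chil3 (chromosome 3, 106147554 to 106167564, minus strand) was at 16.6, 35.8 and 21.0 in the NonCM control libraries and at 90.3, 378 and 256 in the Wls fl/fl libraries. It had the widest spread of the 4 genes, since Wls fl/fl replicate 2 was 4.18 times replicate 1, and the coefficient of variation in that group was 59.8%. Means were 24.5 ± 10.1 and 241 ± 144, a log2 difference of 3.09, from 79 and 1052 reads (pooled ratio 9.02, 7.17 to 11.5). Without Wls fl/fl replicate 1 the log2 difference was 3.68, and without Wls fl/fl replicate 2 it was 2.66.

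Prg4 (chromosome 1, 150449412 to 150466165, minus strand) was at 49.9, 31.3 and 31.1 in the NonCM control libraries and at 93.5, 131 and 124 in the Wls fl/fl libraries. It had the highest control level and the smallest difference of the 4, with a coefficient of variation of 17.2% among Wls fl/fl libraries. The lowest Wls fl/fl library was 1.87 times the highest control library, which is the shallow replicate 1 with 9 Prg4 reads. Means were 37.4 ± 10.8 and 116 ± 20.0, a log2 difference of 1.63, from 93 and 510 reads (pooled ratio 3.72, 2.97 to 4.69). A stretch of 524 exonic bases of Prg4 overlaps Tpr, a nuclear pore gene on the other strand, and how the counting treated strand is not given in the sources used here. Tpr was at 1688 to 1791 in NonCM control and 1567 to 1646 in NonCM Wls fl/fl libraries. The part of Tpr in the Prg4 reads was not tested.

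**Figure D1:**
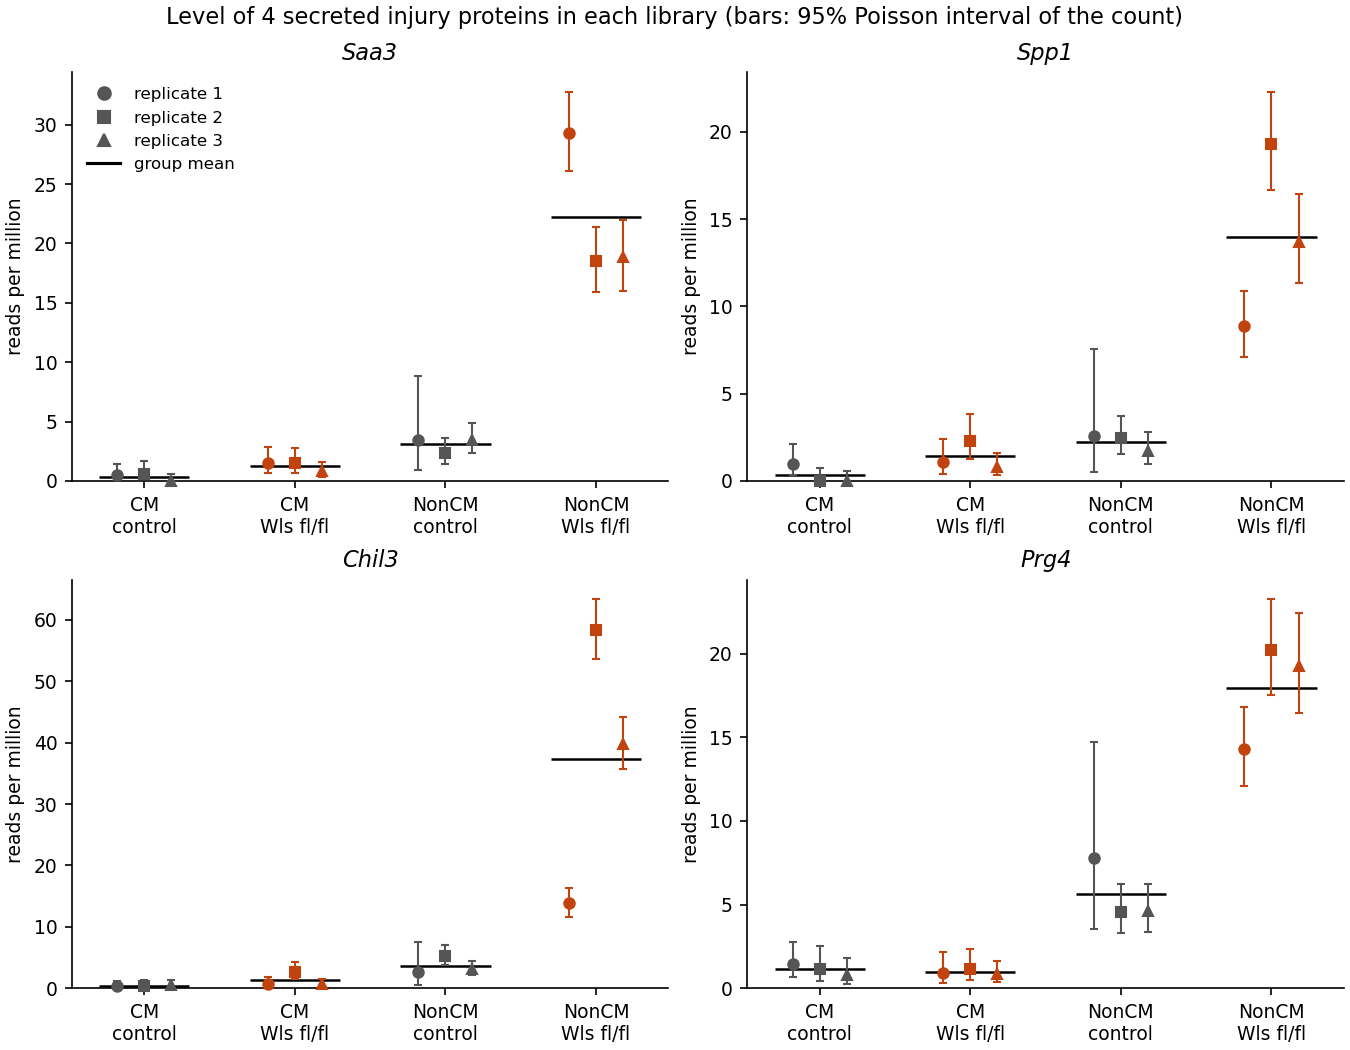
Reads scaled to the library's read total (RPM, vertical axis) of Saa3, Spp1, Chil3 and Prg4 in each of the 12 libraries, with control in grey and Wls fl/fl in orange, the marker shape giving the replicate, bars the 95% Poisson interval of the count and black lines the group mean. In the NonCM fraction each Wls fl/fl library lies above each control library for all 4 genes, and the wide bars of control replicate 1 reflect its depth. In the CM fraction levels are near the axis for all 4 genes.

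Under the scalings, pseudocounts, count models and omissions tried, the NonCM log2 differences were 2.52 to 2.94 for Saa3 and 2.20 to 2.75 for Spp1. They were 2.66 to 3.68 for Chil3 and 1.46 to 1.85 for Prg4. Every Wls fl/fl library lay above every control library, so no omission could turn the sign of these differences. Without the shallow control replicate 1 they were 2.80, 2.54, 2.86 and 1.85 in that order. Without replicate 3 of both genotypes they were 2.94, 2.28, 2.87 and 1.46.

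Ordered by log2 difference among all 13271 tested NonCM genes, Chil3 was 4th, Saa3 5th, Spp1 10th and Prg4 61st. A mean of 50 or more was reached by 9771 genes, and 9478 remained after uncharacterised symbols were left out. Among these 9478, the 10 largest positive differences were, in order, Esr1, Chil3, Saa3, Ngp, Spp1, S100a8, Zrsr1, S100a9, Col6a5 and Prg4. Ngp, S100a8 and S100a9 encode neutrophil granule and cytosol proteins. Col6a5, a collagen VI chain, was just above Prg4 with a log2 difference of 1.98. The place of Zrsr1 rests on NonCM control replicate 1, where it was at 122 against 18514 and 19616 in the other control libraries.

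**Figure D2:**
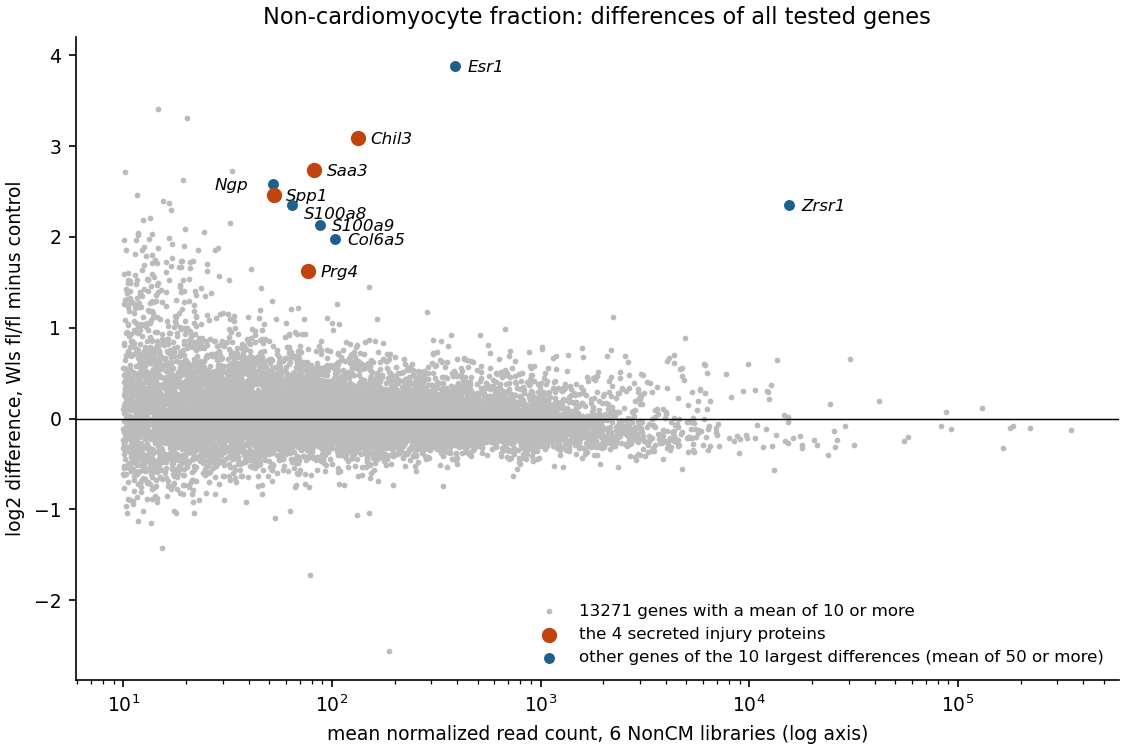
Log2 difference of Wls fl/fl minus control (vertical axis) against the mean normalized read count of the 6 NonCM libraries (horizontal log axis), with each tested gene as a grey point. Saa3, Spp1, Chil3 and Prg4 (orange) lie among the 10 largest positive differences at a mean of 50 or more (the other 6 in blue), at log2 differences of 1.63 to 3.09.

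In the CM fraction the 4 genes were barely detected, with means under 10 in both genotypes, so none entered the limma fit across all genes, which called 8 of 11944 CM genes higher (0.067%) and 3 lower (0.0251%), and each was tested instead by an exact permutation test over libraries. Saa3, Spp1 and Chil3 had higher means in Wls fl/fl and Prg4 did not. The smallest two-sided p that 3 against 3 libraries can give is 0.1, so this test could not pass 0.05. Saa3 and Chil3 were the 2 of 4 genes with every Wls fl/fl library above every control library, which held for 4.39% of the 3850 CM genes with a mean of 2 to 10.

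Saa3 in CM was at 3.07, 3.70 and 0 in control and at 9.40, 9.38 and 5.18 in Wls fl/fl libraries (means 2.26 ± 1.98 and 7.99 ± 2.43, n = 3, exact two-sided permutation p = 0.1). The groups did not overlap, on 6 and 25 reads with a pooled ratio of 3.49 (1.40 to 10.4). Intervals of the pooled ratios in CM cover counting error only and leave out the spread between libraries. Chil3 was at 2.04, 2.47 and 2.92 in control and at 4.70, 16.7 and 4.53 in Wls fl/fl libraries (means 2.48 ± 0.438 and 8.63 ± 6.96, n = 3, exact two-sided permutation p = 0.1). Wls fl/fl replicate 2 was the highest, and the log2 difference went from 1.25 to 0.70 without it. The pooled ratio, on 7 and 27 reads, was 3.23 (1.37 to 8.80).

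Spp1 in CM was at 6.13, 0 and 0 in control and at 7.05, 14.6 and 5.18 in Wls fl/fl libraries, and the groups overlapped (means 2.04 ± 3.54 and 8.94 ± 4.98, n = 3, exact two-sided permutation p = 0.2). The pooled ratio on 6 and 28 reads was 3.91 (1.59 to 11.6, counting error only), and all 6 control reads came from replicate 1. At a floor of 3 reads, the 0 reads of control replicates 2 and 3 allow up to 0.580 and 0.460 RPM (reads scaled to the library total, counting error only). Prg4 was at 9.20, 7.40 and 4.87 in control and at 5.87, 7.29 and 5.18 in Wls fl/fl libraries (means 7.16 ± 2.18 and 6.12 ± 1.08, n = 3, exact two-sided permutation p = 0.6). Its pooled ratio on 20 and 20 reads was 0.839 (0.428 to 1.64, counting error only). The NonCM values chose Prg4, so no comparison with its NonCM ratio is drawn. The difference between the fractions was not tested.

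A count model was also run. Adjusted over all CM genes with a read, edgeR's quasi-likelihood p was 0.272 for Saa3, 0.132 for Spp1, 0.266 for Chil3 and 0.902 for Prg4. Limma with no filter gave adjusted p of 0.465, 0.268, 0.707 and 0.931 in that order. The authors' deposited table gives unadjusted p-values of 0.0474, 0.0365, 0.0487 and 0.741 for these genes in CM, with no adjusted value for any of them. An unadjusted limma p under 0.05 was reached by 1044 of the 11944 CM genes with a mean of 10 or more. That set leaves out these 4 genes. Macrophage markers made up 0.00670% to 0.00837% of reads in CM control and 0.00708% to 0.00779% in CM Wls fl/fl libraries, a range that lies within that of the controls. Neutrophil markers made up 0.000215% to 0.000329% and 0.000266% to 0.000386%, and monocyte markers 0.000928% to 0.00157% and 0.00136% to 0.00218%. The monocyte share was mostly the matrix gene Vcan, with 514 reads over the CM libraries against 58 for Fcgr3, the next highest. The part of carried-over NonCM cells in the CM reads of the 4 genes was not tested.

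All 4 genes had more RPM in NonCM than in CM, in both genotypes. The ratio of NonCM to CM means in control hearts was 5.02 for Prg4, 6.98 for Spp1, 8.69 for Saa3 and 9.37 for Chil3. In Wls fl/fl hearts it was 9.94 for Spp1, 17.7 for Saa3, 18.7 for Prg4 and 27.5 for Chil3. The fractions were normalized apart and these ratios were not tested. As RPM for each kilobase of the longest coding transcript, NonCM control levels were 2.37 ± 0.912 for Chil3, 1.497 ± 0.307 for Spp1, 1.40 ± 0.291 for Saa3 and 1.33 ± 0.427 for Prg4. Spp1, Saa3 and Prg4 did not differ beyond their spread there, and Chil3 overlapped Spp1 and Prg4 by range. In NonCM Wls fl/fl libraries the per-length levels were 24.3 ± 14.6 for Chil3, 10.1 ± 2.79 for Saa3, 9.27 ± 3.48 for Spp1 and 4.21 ± 0.750 for Prg4. Prg4 was thus the lowest per length, and Saa3 and Spp1 were within their spread of each other.

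Close relatives of the 4 genes had few reads. In NonCM, Saa1, Saa2 and Saa4, other serum amyloid A genes, had 2, 1 and 1 reads in all 6 libraries together. The bone matrix relatives of osteopontin, Ibsp and Dmp1, had 2 and 25 reads, with Dmp1 means of 3.00 (control) and 2.96 (Wls fl/fl), and Dspp and Mepe had none. Among chitinase-like genes, Chil4, Chil5 and Chia1 had 7, 6 and 1 reads and Chil6 had none. All 7 Chil4 reads came from Wls fl/fl libraries, and 28.5% of the 50-base words of Chil3 transcripts also occur in other genes, mainly Chil4. How reads that fit both genes were counted is not given in the sources used here, and the part of Chil4 in the Chil3 values was not tested. Of the Saa3 words 3.64% occur in other genes, 245 in number, and of the Prg4 words none do. Words were compared on the transcript strand only, so the overlap of Prg4 with Tpr on the other strand could not register. For Spp1 the shared words, 11.6%, lie in Gm42793, an overlapping model on the same strand that is listed at 0 in all libraries.

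Chil1, which encodes the chitinase-like protein YKL-40, was the only relative with a mean of 10 or more. It was at 5.54, 6.10 and 8.69 in NonCM control and at 19.7, 24.0 and 17.2 in NonCM Wls fl/fl libraries, and it rose by limma across all genes (log2 difference 1.46, adjusted p = 0.0416). The call was lost on leaving out any of 5 of the 6 libraries, with adjusted p up to 0.233. In CM, Chil1 had 6 reads.

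Whether each of the 4 genes had companions of like pattern was examined over the 6 NonCM libraries. The search covered 9478 genes with a mean of 50 or more, uncharacterised symbols left out. The 6 libraries fall into 2 genotype groups and share depth and size factors, so each correlation mostly reflects the genotype difference and is a description. Saa3 was most like Soat1, Sorbs3 and Adgrd1 (Pearson r = 0.997 for each), of which Soat1 is the enzyme that esterifies cholesterol. Spp1 was most like C1ra, Mfap2 and Ccdc80 (r = 0.996, 0.995 and 0.993), a complement protease and 2 matrix genes. Chil3 was most like Fos, Fuca1 and Klhl20 (r = 0.994, 0.99 and 0.987), of which Fos is an immediate early gene, at 1541 to 1644 in control and 2130 to 2913 in Wls fl/fl libraries. Prg4 was most like Arrdc1, H2-D1 and Ifi27l2a (r = 0.996, 0.995 and 0.995), a class I antigen presenting chain and an interferon-induced gene being the last 2. The log2 differences of these 12 genes were 0.21 to 0.84, all smaller than those of the 4 genes.

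Within the Wls fl/fl NonCM group the 4 genes did not share 1 order of libraries. Saa3 was highest in replicate 1, whereas Spp1, Chil3 and Prg4 were highest in replicate 2 and lowest in replicate 1. All 8 tested neutrophil genes were lowest in replicate 1, with Ngp at 21.0, 165 and 91.9 in replicates 1 to 3, and the highest library was a median of 5.5 times the lowest. Other lists were mixed. Of 13 acute phase and inflammatory genes 4 were highest and 7 lowest in replicate 1, with a median spread of 1.31-fold. Of 12 epicardial and mesothelial genes 9 were highest and 2 lowest in replicate 1 (median spread 1.28-fold). Of 12 macrophage genes 8 were highest and 3 lowest there, within a spread of 1.01-fold to 1.18-fold. With 3 libraries, and with replicate 3 near a mean of the other two, such orders are values and not a tested pattern.

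**Figure D3:**
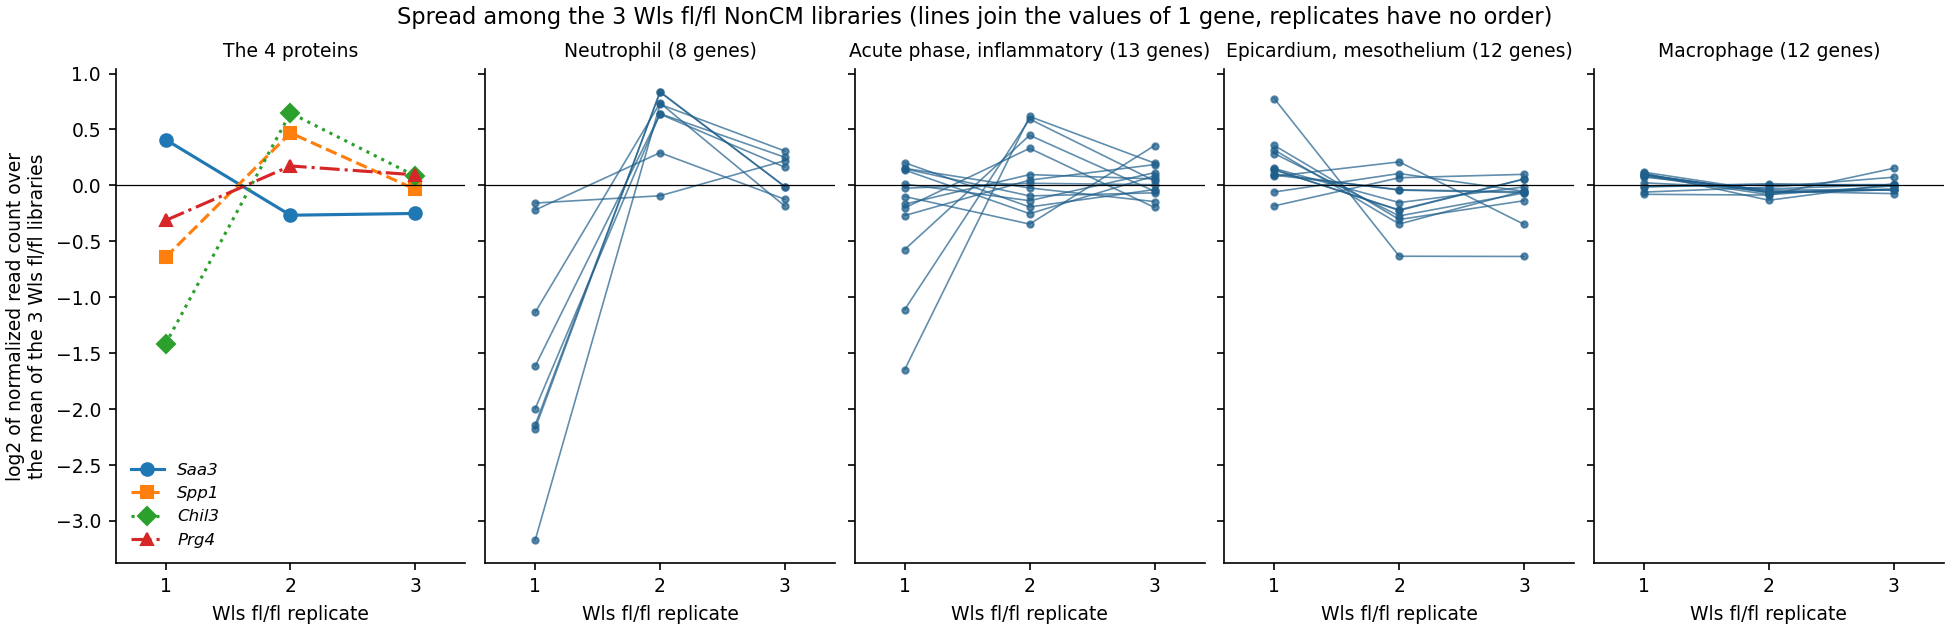
Log2 of the normalized read count over the mean of the 3 Wls fl/fl NonCM libraries (vertical axis) for each replicate (horizontal axis), for the 4 genes and for all tested genes of the neutrophil, acute phase, epicardial and macrophage lists. Lines join the values of 1 gene, and replicates have no order. Spp1, Chil3 and Prg4 lie lowest in replicate 1, as do all 8 neutrophil genes, Saa3 lies highest there, and the 12 macrophage genes differ by at most 1.18-fold.

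Other genes were grouped by list, and counts below are of genes called by limma over all 13271 NonCM genes, of which 2.47% were called higher and 2.03% lower in Wls fl/fl. Under upper-quartile scaling the split was 266 higher and 371 lower, against 328 and 270 here. Without control replicate 1, limma called 881 higher and 753 lower of 13280 genes. On all NonCM libraries edgeR called 761 higher and 685 lower of 13271, and DESeq2 called 334 and 295 of 10448. In CM, DESeq2 called 15 higher and 9 lower of 10069. List counts under those settings are to be read beside these totals. The median log2 difference of all tested genes was 0.02. No limma call in NonCM held without replicate 3 of both genotypes, where the fit called 0 of 13278 genes (1242 at an unadjusted p under 0.05) and edgeR called 33. Of 37 called list genes followed one by one, 9 kept their call whichever single library was left out, namely Fn1, Fstl1, Col1a1, Col1a2, Col3a1, Lum, Lyz2, Mfap5 and Pi16. The lists' medians kept their sign there except that of the pericyte and smooth muscle list.

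Receptors and binding partners of the 4 proteins gave 4 of 15 tested genes that rose in NonCM and none that fell, with a list median of 0.28. Cd44, the shared receptor of osteopontin and lubricin, rose from 238 ± 15.4 to 338 ± 21.6 (log2 difference 0.50, adjusted p = 0.0137). The osteopontin-binding integrin subunits Itgav, Itga4 and Itga8 rose by log2 differences of 0.28, 0.51 and 0.57 (adjusted p = 0.0360, 0.0160 and 0.0374). Their partners did not pass, with Itgb1 at -0.04, Itgb5 at 0.02 and Itgb3 at 0.38, nor did Itga5 at 0.00 and Itga9 at 0.12. Among innate receptors that bind serum amyloid A or lubricin, log2 differences were 0.76 for Tlr2 (adjusted p = 0.163), 0.01 for Tlr4, 0.32 for P2rx7, 0.56 for the scavenger receptor Msr1, -0.22 for Scarb1 and -0.21 for Cd36. Fpr2 and Ager were below the minimum mean, with 35 and 44 reads. DESeq2 called 3 of these genes higher and 1 lower, and edgeR called 6 and 1. Without control replicate 1 limma also called 6 and 1. In CM, limma and edgeR called none of 13 tested receptors, and DESeq2 called 1 higher. An unadjusted limma p under 0.05 was reached by 2 of the 13, beside 1044 of all 11944 CM genes.

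Acute phase and inflammatory secreted proteins, the class of Saa3, had a NonCM median of 0.69, and 2 of 13 tested genes rose. These were complement C3, from 1948 ± 289 to 3133 ± 438 (log2 difference 0.69, adjusted p = 0.0165), and the neutrophil chemokine Cxcl1, from 66.4 ± 19.9 to 135 ± 12.99 (1.06, adjusted p = 0.0276). The chemokine Ccl2 was at 16.9 ± 1.07 and 29.7 ± 3.11 (adjusted p = 0.0884). The alarmin Il33 was at 35.7 ± 9.61 and 64.4 ± 10.1 (adjusted p = 0.0701). Haptoglobin (Hp) and lipocalin 2 (Lcn2), acute phase proteins that neutrophils also carry, had differences of 2.39 and 1.36 that did not pass (adjusted p = 0.154 and 0.212). Serpina3n, Cp and Ptx3, other acute phase genes, were at 0.11, 0.01 and -0.09. Without control replicate 1 limma called 6 of 14 and edgeR, on all libraries, called 5 of 13. None of 5 tested genes was called in CM by limma, edgeR or DESeq2. An unadjusted limma p under 0.05 was reached by 2 of the 5, beside 1044 of all 11944 CM genes.

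Of 22 inflammatory signalling and transcription factor genes, among them the interleukin-1, interleukin-6 and oncostatin M receptors, NF-kappaB subunits and C/EBP factors that are known regulators of serum amyloid genes, limma called none in NonCM. At an unadjusted limma p under 0.05 there were 6 of 22, beside 2565 of all 13271 NonCM genes. Of the 22, edgeR called 2 and DESeq2 called 0. Their median was 0.20, with 19 of 22 higher. Cebpb was at 438 ± 92.2 and 498 ± 21.5, and Cebpd at 409 ± 204 and 475 ± 20.5 with its lowest value, 194, in the shallow control library. The cytokine Osm was at 0, 8.39 and 9.41 in control and at 18.4, 16.0 and 18.7 in Wls fl/fl libraries (adjusted p = 0.213). The myeloid factor Spi1 (PU.1) was at 95.4 ± 3.37 and 123 ± 2.49 (adjusted p = 0.0735).

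Alternative macrophage activation genes, the usual company of Chil3, had 2 of 12 members that rose and a median of 0.29. Arg1 (arginase 1) was at 0, 9.91 and 3.62 in NonCM control and at 43.2, 35.3 and 29.9 in Wls fl/fl libraries (log2 difference 3.31, adjusted p = 0.0403). The difference was 2.37 without control replicate 1 and 4.09 without control replicate 2, and the call was lost without control replicate 3 or any 1 of the Wls fl/fl libraries (adjusted p up to 0.176). Retnla, the secreted resistin-like alpha, rose from 84.2 ± 18.9 to 150 ± 9.83 (0.84, adjusted p = 0.0209). The receptors Mrc1 and Cd163 had differences of 0.33 and 0.31 with overlapping groups, and Il4ra and Stat6, which relay the interleukin-4 signal, were at 0.11 and 0.03. Of 12 lipid and scar associated macrophage genes, a set in which Spp1 is often grouped, Mmp12 (macrophage elastase) rose from 11.1 ± 0.291 to 39.1 ± 9.67 (1.70, adjusted p = 0.0108) and Mmp14 rose by 0.40 (adjusted p = 0.0113), with a list median of 0.14. Gpnmb had a difference of 1.14 that did not pass (adjusted p = 0.110). Trem2 (-0.06), Fabp5 (0.04) and Cd63 (0.00) lay near 0. Without control replicate 1 limma called 5 of these 12 genes higher and 1 lower.

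Matricellular and injury-response secreted proteins, the class of osteopontin, had 6 of 14 tested members that rose and 1 that fell in NonCM, with a median of 0.51. Fn1 (fibronectin) rose from 3482 ± 104 to 6419 ± 114 (log2 difference 0.88, adjusted p = 9.8e-05). Postn, Tnc, Fstl1, Sparc and Timp1 rose by 0.75, 0.72, 0.61, 0.32 and 1.47. Thbs4 (thrombospondin 4) fell by 2.56, from 315 ± 11.8 to 60.1 ± 33.5 (adjusted p = 0.00929). In CM, Thbs4 was the only gene called on any of these lists by limma, with a log2 difference of -4.05 (adjusted p = 3.6e-05). Thbs4 kept its CM call whichever single library was left out. Hyaluronan and joint-surface matrix genes, the class of lubricin, had 2 of 13 that rose, the leucine-rich proteoglycans Lum (0.52) and Prelp (0.34), and 1 that fell, Clu (-0.29), with a median of 0.12. The hyaluronan synthase Has2 was at 22.4 ± 4.99 and 40.6 ± 6.70 (adjusted p = 0.0830).

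Cell type markers moved with the genotype in the same NonCM libraries. The fibroblast list had 9 of 11 genes that rose, with a median of 0.56 and summed shares of 0.934% to 0.949% of control reads against 1.37% to 1.48% of Wls fl/fl reads. Col1a1, Col1a2, Col3a1 and Mfap5 rose by 0.65, 0.60, 0.65 and 0.73. The cardiomyocyte list had 7 of 10 that fell and a median of -0.29, with shares of 6.10% to 6.62% and 5.24% to 5.39%. In bulk libraries more cells of a type and more RNA per cell cannot be told apart.

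Macrophage markers had 3 of 12 that rose, Lyz2, Cd68 and Ctss, each by 0.47, and a median of 0.32. Their summed share was 0.139% to 0.175% in control and 0.198% to 0.214% in Wls fl/fl libraries, with all 12 detected in each library. Monocyte markers had 1 of 6 that rose, Plac8 by 1.88, with shares of 0.0137% to 0.0198% and 0.0220% to 0.0252%. Most of that share was Vcan, a matrix gene also on the hyaluronan list. Vcan means were 717 (control) and 1058.5 (Wls fl/fl), against 246 and 301 for Fcgr3, the next highest. The share is therefore mainly a reading of Vcan. All 6 tested genes had higher means, while Ly6c2 and Ms4a4c, below the minimum mean, overlapped between the genotypes. Epicardial and mesothelial markers had 2 of 12 that rose, Upk1b by 1.29 and Aldh1a2 by 0.83, with shares of 0.0125% to 0.0218% and 0.0243% to 0.0274%, and limma called 10 of 12 without control replicate 1. Endothelial markers had 1 of 10 that fell, Emcn by 0.29, and pericyte and smooth muscle markers 1 of 8, Abcc9 by 0.22.

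The neutrophil list had the highest median of the 15 lists, 2.24, with all 8 tested genes higher and 1 called, Ltf (lactoferrin), from 6.03 ± 1.75 to 60.3 ± 47.2 (log2 difference 2.73, adjusted p = 0.0471). Leaving out replicate 1 of the Wls fl/fl libraries gave 3.56, leaving out their replicate 2 gave 2.10, and the call was lost when replicate 2 or 3 of either genotype was omitted (adjusted p up to 0.231). The summed share of neutrophil markers was 0.00121% to 0.00193% in control and 0.00278% to 0.0129% in Wls fl/fl libraries. The defining gene Ly6g had 3 reads and Elane 3 reads in the 6 libraries, both at 0 in NonCM control replicates 1 and 2. The adjusted p of S100a8, S100a9 and Ngp were 0.0579, 0.0530 and 0.0624, and edgeR called 6 of 8. Macrophage, fibroblast, epicardial and neutrophil shares thus moved in the same direction as Saa3, Spp1, Chil3 and Prg4, and their part in the differences of the 4 genes was not tested.

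**Figure D4:**
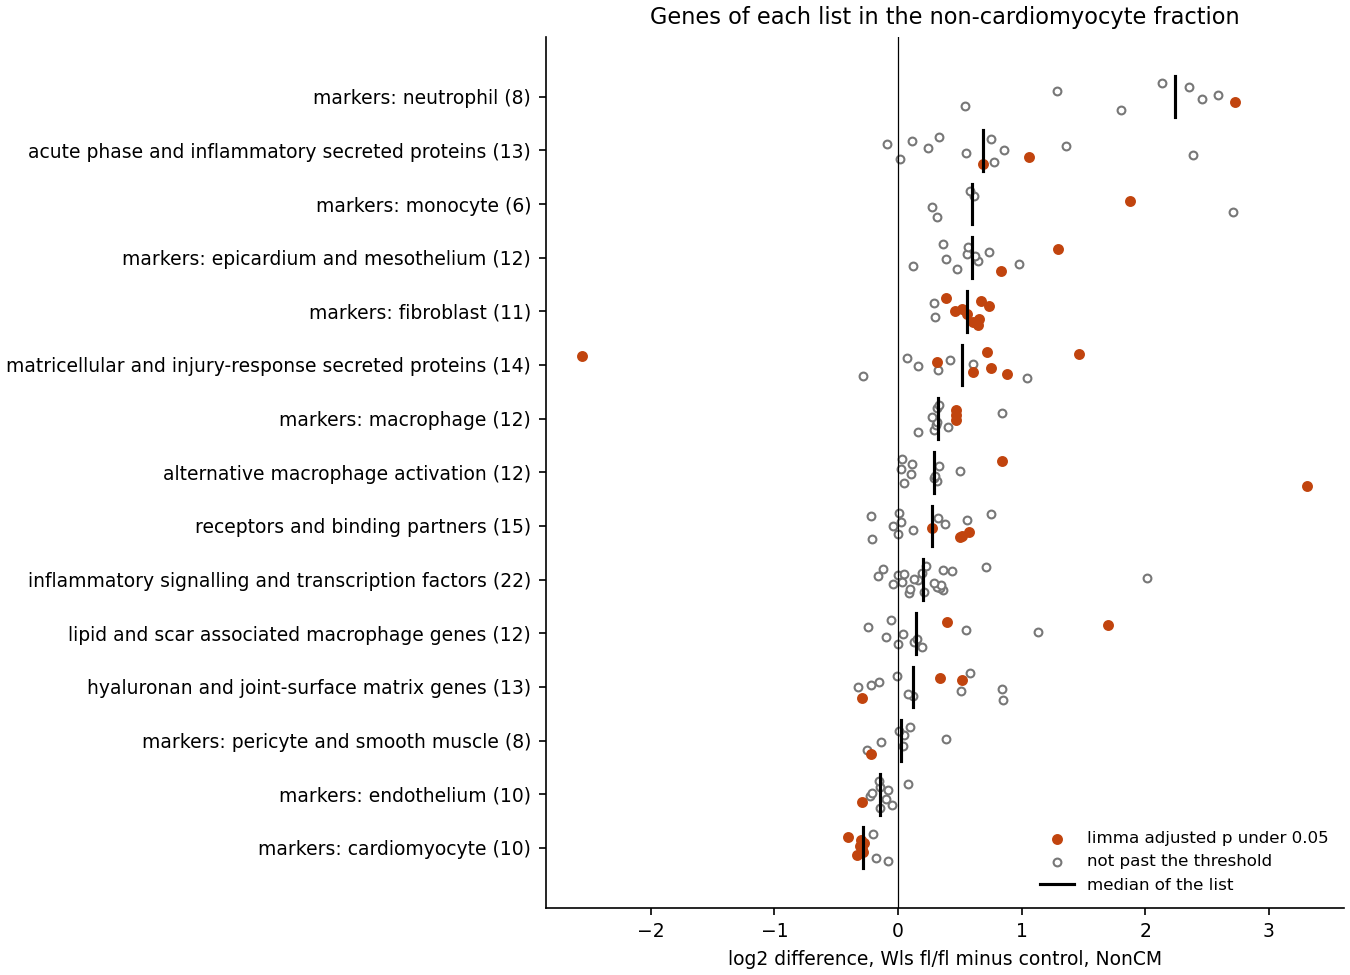
Log2 difference of Wls fl/fl minus control in NonCM (horizontal axis) for the tested genes of 15 lists (rows, number tested in parentheses), with called genes filled, other genes open and a bar at each list's median. The neutrophil list has a median of 2.24, the acute phase list 0.69, the fibroblast list 0.56 and the cardiomyocyte list -0.29, and medians of the remaining lists lie between -0.15 and 0.60.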

How the data were processed

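RNA was sequenced from 12 mouse heart libraries in 4 groups of 3, grouped by the labelled genotype and fraction, with replicates numbered in accession order. The submitters' processing notes name STAR, DESeq2 and mm10, and which annotation, counting tool and strand setting were used is not stated in these sources. For each fraction 1 table was deposited, holding a signal per library, the read count that the authors divided by a size factor. All nonzero values were whole multiples of 1 step per library (tolerance 0.01 reads), and the reads so recovered numbered 1160146 to 10281214 per library. Further columns are, per the file headers, log2 fold changes, a test statistic (score) and p-values of the authors' own comparison.

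Within each fraction, limma 3.58.1 (R 4.3.3, eBayes with trend) was fitted to log2(value + 1) of genes whose mean reached 10, taking control from Wls fl/fl, with Benjamini-Hochberg adjustment at 0.05. The 4 genes, which lay below that mean in CM, were tested there by exact permutation. Other genes below it had no test in the main analysis. The 4 genes, the gene lists, the tests and the alternatives were chosen with earlier results of these data known. Genes were named by rule, namely the 4 genes, their paralogs with a read, all tested receptors, the 4 smallest p per list in NonCM and 2 in CM, the 3 most correlated genes per member, and the 10 largest differences at a mean of 50 or more, leaving out uncharacterised symbols. Genes named beyond the rule, as examples of a raised, unchanged or marker level, were chosen after their values were seen. Ratios of pooled reads have exact 95% intervals, which cover counting error only. Code was tested on simulated counts. The alternatives changed the scaling (TMM, upper quartile), the filter (none, or a mean of 50) or the pseudocount (0.5, 5), or used edgeR 4.0.16 and DESeq2 1.42.0 on recovered reads, or left out each library in turn or replicate 3 of both genotypes. List counts under these settings were added after the data were seen. Gene positions are from GENCODE M21.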

Additional observations from a re-analysis of the deposited data

How the results depend on the processing

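The direction of the 4 NonCM differences could not turn on leaving out libraries, because the groups did not overlap. Under all alternatives run, the differences of Saa3, Spp1, Chil3 and Prg4 there moved by less than the spread between replicates. In CM those of Saa3, Spp1 and Chil3 kept their direction under the alternatives run, and a filter at a mean of 50 leaves no value there. The exact test of 3 against 3 libraries cannot go below 0.1, so its p says nothing of their stability. Prg4 in CM ranged from -0.39 to 0.0085 (log2) when each library was left out in turn, and it turned positive without control replicate 1. The number of genes called by limma in CM was 11, and it was 41 with no filter, 24 by DESeq2, 5 to 18 leaving out each library in turn and 2 without replicate 3 of both genotypes. In NonCM it was 598, and it was 1446 by edgeR, 77 to 1634 leaving out each library in turn (highest without control replicate 1) and 0 without replicate 3 of both genotypes. Fewer libraries and the shallow control library both enter those counts, and the cause was not tested. Of 86 named NonCM genes, 37 were called, beside 598 of all 13271. Many of the 86 were named for a small p in NonCM, so their share of calls was raised by that choice. Of the 37, 28 lost the call in at least 1 omission of a library, and none reversed. List genes that were called but not named, such as Dpt, were not followed. Each of the 4 genes rests on 0 to 16 reads per library in CM, and on few in the shallow NonCM control replicate 1. No paired analysis was possible because the control and Wls fl/fl libraries compared within a fraction carry different library numbers, and no label ties a library to a heart.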
